A study of Mus musculus with 18 samples.

Results

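Albumin and 9 other major carrier proteins of blood plasma are described here at the level of their messenger RNA in mouse hepatocytes. The 10 genes were Alb, Ttr, Trf, Rbp4, Gc, Hp, Hpx, Ambp, Cp and Ahsg. They were listed by symbol and matched to the Ensembl mouse gene IDs of the deposited count table. All 10 of 10 were found, each in 1 row, among 28030 genes in the table, and all 10 passed the filter on low counts that left 12477 genes for testing. The list was chosen with earlier results of these data known, so the calls below are not tests of a list set blind to the data.

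The study profiled hepatocytes of the pericentral and periportal zones, the cells around the central vein and around the portal vein of the liver lobule, from wild-type male C57BL/6J mice at 12 weeks of age on normal chow. The labels name digitonin for the zone separation. This detergent is classically infused from the portal or the central side to destroy the cells of that side before the rest are collected. All mice had been trained for 3 days with food removed for 16 h overnight, and were then given food together with drinking water holding 20% sucrose. The fed groups were taken after 4 h of feeding at 13 h clock time, the 8 h fasted groups at 21 h clock time, and the 24 h fasted groups at 13 h clock time on the following day. Each of the 6 groups of zone and state held 3 libraries of total RNA, 18 in all. The labels do not say whether libraries of 1 group came from separate animals, or whether both zones of an animal were used, so p-values measure the spread between these libraries. The 8 h groups differ from both the fed and the 24 h groups in clock time as well as in feeding. In comparisons with the 8 h groups, the effects of clock time and feeding cannot be told apart.

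Hepatocytes make most of the proteins of plasma and release them through the endoplasmic reticulum and Golgi. Carrier proteins keep poorly soluble or reactive cargo in solution: albumin binds fatty acids, bilirubin and hormones, transferrin iron, haptoglobin free haemoglobin, hemopexin free haem, and retinol-binding protein vitamin A. Some of these genes are also acute-phase genes, whose transcription in the liver rises with the inflammatory signals interleukin-6 and interleukin-1, while albumin is known to fall in inflammation. Transcription of the albumin gene depends on liver factors that bind close to its start, among them members of the C/EBP and PAR bZIP families.

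The RefSeq table of promoter windows (GRCm38.p6), 250 bases before to 50 after a start, held a window for 7 of the 10 genes. The stretches for Alb and Hpx are shown, because Alb is the most abundant gene and was called by zone in each state, and Hpx was called or not called by zone depending on the libraries used. Each is 200 bases long and ends just before the RefSeq or the GENCODE start, whichever lies further upstream. Capitals mark matches, on either strand, to CCAAT (the CCAAT box) or TTNCNNAA (the C/EBP and PAR bZIP motif). The Alb stretch lies at chr5:90460670-90460869 on the plus strand and that of Hpx at chr7:105600138-105600337 on the minus strand, both written 5′ to 3′.
Alb: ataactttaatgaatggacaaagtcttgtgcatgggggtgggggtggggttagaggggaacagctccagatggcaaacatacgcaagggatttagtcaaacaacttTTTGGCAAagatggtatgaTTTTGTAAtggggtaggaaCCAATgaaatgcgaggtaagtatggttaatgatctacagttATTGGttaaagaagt
Hpx: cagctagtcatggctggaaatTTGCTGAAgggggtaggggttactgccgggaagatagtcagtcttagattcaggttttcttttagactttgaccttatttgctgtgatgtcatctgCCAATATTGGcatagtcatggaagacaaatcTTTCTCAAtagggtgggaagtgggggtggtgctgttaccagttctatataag

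The Alb stretch held CCAAT 56 to 52 and, on the other strand, 15 to 11 bases before the RefSeq start, with TTNCNNAA at 2 places further upstream. In the Hpx stretch, CCAAT stood on both strands next to each other, and TTNCNNAA occurred at 2 places. Over whole windows, CCAAT was found in 7 of 7 genes and 37.41% of all 32851 windows in the table, and TTNCNNAA in 6 of 7 and 40.68%. A gene was counted if any of its windows held the motif, while the shares are per window. Rbp4 and Cp had an additional window, so counts and shares are not directly comparable. TATAAA (the TATA box) was found in 2 of 7 genes, Rbp4 and Cp, and 13.62% of windows. TGTTTAC (the FOXA motif) was found in 1, Rbp4, and 3.65% of windows. CAAAGTCCA (the HNF4 motif, 0.4749% of windows) and TTCNNNGAA (the STAT motif, 8.298%) had no match in these windows. These matches describe letters only; the motifs can overlap in part, and no binding was measured.

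Libraries held between 18359900 and 26384400 estimated counts. The zone labels fitted the zone markers: Cyp2e1, a pericentral cytochrome P450, stood at 7611 to 16062 CPM (counts scaled to equal library totals) in the 9 pericentral libraries and 324.6 to 1826 in the 9 periportal ones, and Cyp2f2, a periportal one, at 132 to 793 and 1578 to 3075. Library 2 of the pericentral 24 h group had mixed zone markers, with the highest pericentral Cyp2f2 (793 CPM) and the lowest pericentral Glul (111 CPM, against 552 to 1375 in the other 8). Its Cyp2e1, at 10266 CPM, lay within the range of the other pericentral libraries, and its Cyp2f2 stayed below the periportal range. Markers of other cell types were low: the summed level of 10 endothelial markers was 5.01 to 13.6 CPM in pericentral and 5.31 to 43.8 in periportal libraries, that of 12 Kupffer cell and leukocyte markers 1.02 to 7.86 and 0.808 to 31.8, that of 10 stellate cell and fibroblast markers 1.76 to 10.2 and 2.91 to 24, and that of 7 cholangiocyte markers 19.3 to 37.6 and 32.9 to 56.8, with Epcam at 0 in all 18. By zone, 7 of 9 tested endothelial and 8 of 11 tested Kupffer cell and leukocyte markers were called higher in periportal libraries (20.3% of all genes were called by zone), with median log2 differences of 1.49 and 1.86. The cholangiocyte markers Spp1 and Sox9 were also called higher there, 2.20-fold and 2.03-fold (edgeR adjusted p = 3.05e-04 and 3.14e-06). Without the 3 libraries described next, 3 of 10 endothelial and 0 of 11 Kupffer cell and leukocyte markers were called (15.8% of all genes), with medians of 1.60 and 1.63. Of the cholangiocyte markers 2 of 3 tested were then called, and of the stellate cell and fibroblast markers 1 of 7, all higher periportal. The part of these cells in the zone results was not tested.

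A set of 3 libraries stood apart by the acute-phase genes Saa1 and Saa2, which encode serum amyloid A: library 3 of the pericentral fed group, library 1 of the pericentral 8 h group and library 3 of the periportal 24 h group. Saa1 was at 2096, 3234 and 1611 CPM in these, and at 11.8 to 272 CPM in the other 15. Lcn2, another acute-phase gene, was at 48.9 to 205 CPM against 1.04 to 28.6. Hp, Hpx, Trf, Ambp, Cp and Ahsg each had the highest level of their group in all 3 of these libraries. Many results are therefore given with all 18 libraries and without these 3, a choice made after seeing their Saa1 and Saa2 levels. Others are given with all 18 only, among them the differences of Ahsg and the change of Alb from fed to 24 h. The same holds for the results on transcription factors, receptors, genes that handle cargo and genes with a similar pattern. The part of the acute-phase response in the results was not tested.

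Alb, the gene of serum albumin, was the most abundant gene of all 28030 in each of the 18 libraries. It alone held 4.36% to 13.2% of all counts, and the 10 genes together held 8.89% to 18.9%. In pericentral hepatocytes the 10 genes took 9.68% ± 0.931 (SD, n = 3) of all counts in the fed state, 9.69% ± 0.513 after 8 h and 10.99% ± 1.70 after 24 h. In periportal hepatocytes they took 15.51% ± 0.797, 16.2% ± 1.89 and 17.23% ± 1.69. Every periportal library was above every pericentral one, whose highest was 12.51% (24 h, library 2) against a lowest periportal value of 14.11%. Alb made up 53.19% to 61.99% of the 10-gene total as a mean of pericentral groups and 68.86% to 70.78% in periportal groups. Without Alb, the other 9 genes held 4.125% to 4.549% of counts as group means in the pericentral zone and 4.828% to 5.031% in the periportal zone, so the larger share in periportal cells was mostly Alb. In bulk RNA such as this, a smaller number of strongly expressing cells and less RNA per cell cannot be told apart.

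**Figure D1:**
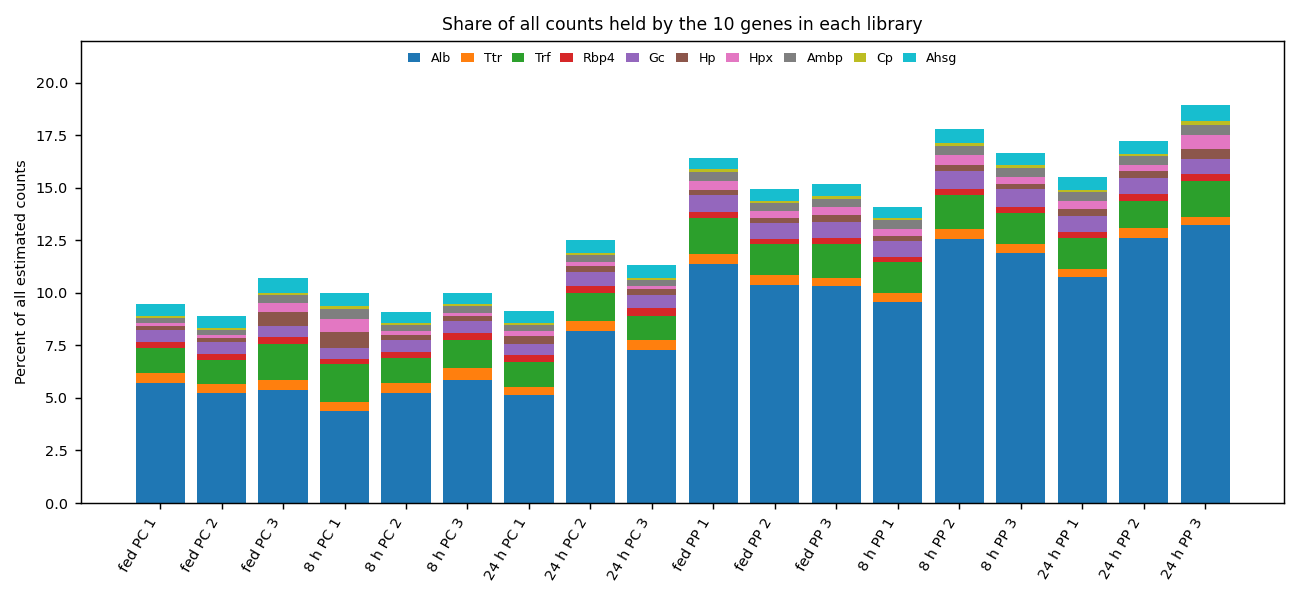
Percent of all estimated counts (y axis) held by each of the 10 genes, stacked, in each of the 18 libraries (x axis; PC pericentral, PP periportal, then the replicate number). Alb is the lowest and largest block in each bar, and the 9 periportal bars, 14.11% to 18.9%, all stand above the 9 pericentral ones, 8.89% to 12.51%.

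Per kilobase of transcript, which allows levels of different genes to be compared, the 10 genes fell into 3 tiers over the 18 libraries. Alb averaged 43479 CPM per kb (range 19679 to 78447) and was above Trf in 18 of 18 libraries, by 7.70-fold as a ratio of means. Cp, the gene of the copper enzyme ceruloplasmin, was lowest at 272 CPM per kb (177 to 469), 8.10-fold below Hpx and below it in 18 of 18 libraries. Between them stood Trf at 5644, Ahsg at 4079, Ttr at 3879.96, Gc at 3756, Rbp4 at 3240.2, Ambp at 2989, Hp at 2502 and Hpx at 2205 CPM per kb. Trf was above Ahsg in 18 of 18 libraries, but their ranges over libraries overlapped. From Ahsg down to Hpx each gene overlapped its neighbour in the order, and was above it in 9 to 15 of 18 libraries.

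**Figure D2:**
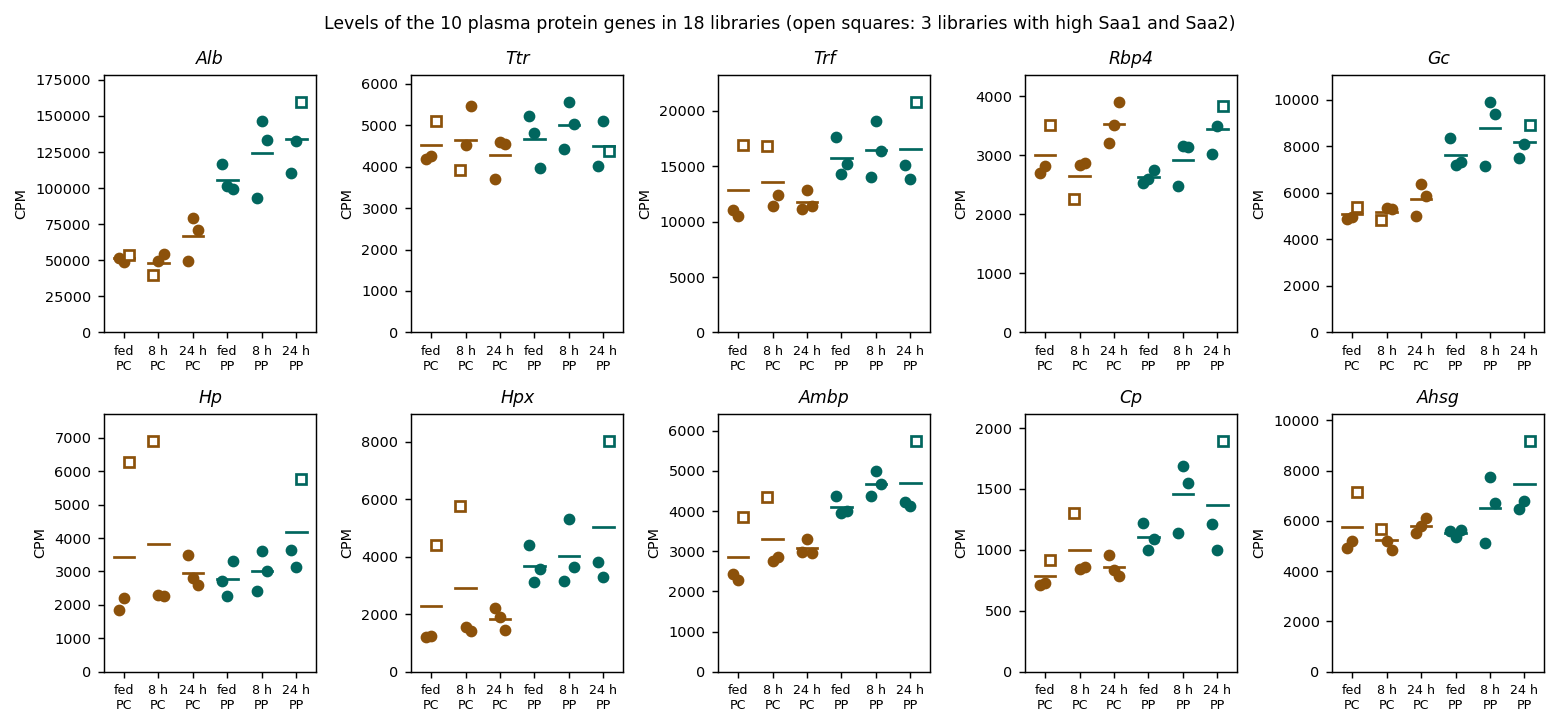
Level of each gene in CPM (y axis, from 0) in every library of the 6 groups (x axis; PC pericentral in brown, PP periportal in green). Points are libraries, lines are group means, and open squares are the 3 libraries with high Saa1 and Saa2, which hold the highest Hp and Hpx of their groups.

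The zones were compared first, which asks whether a gene's level differs between periportal and pericentral hepatocytes. Averaged over the 3 states, 5 of the 10 genes were called at an adjusted p under 0.05, and all 5, Alb, Gc, Ambp, Cp and Trf, were higher in periportal cells. Of all 12477 genes, 20.3% were called in this comparison and 10.3% were called higher periportal. The median log2 difference of the 10 genes was 0.45, and that of all genes tested 0.00. Within single states, 2 of the 10, Alb and Gc, were called in each: in fed mice, where 8.01% of all genes were called, after 8 h, where 7.14% were, and after 24 h, where 4.17% were. With the 3 libraries with high Saa1 left out, 6 of 10 were called over the states (15.8% of 12654 genes), the same 5 and Hpx. In the single states the number was then 5 in fed mice (6.39% of genes), 5 after 8 h (5.26%) and 1 after 24 h (2%).

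Among the albumin family, Alb showed the largest difference. In pericentral libraries it stood at 51668, 48972 and 53767 CPM in the fed state, at 40028, 49520 and 54295 after 8 h and at 49342, 79373 and 71052 after 24 h. In periportal libraries it stood at 116982, 101134 and 99657 CPM when fed, at 93000, 146784 and 133271 after 8 h and at 110461, 132981 and 159562 after 24 h. The 9 periportal libraries were all above the 9 pericentral ones, and the highest pericentral value belongs to the library with mixed zone markers. Alb was 2.21-fold higher in periportal cells over the 3 states (log2 1.14 ± 0.119, SE; edgeR adjusted p = 2.67e-06). By state the log2 difference was 1.04 ± 0.206 (edgeR adjusted p = 0.00402) in fed mice, 1.38 ± 0.208 (adjusted p = 5.62e-04) after 8 h and 1.01 ± 0.206 (adjusted p = 0.00806) after 24 h. The 24 h call was lost without pericentral library 1 or without periportal library 3 of that state, with an adjusted p of up to 0.056, and also without the 3 libraries with high Saa1, where the log2 difference was 0.87. Without the mixed pericentral library 2 it was 1.16 (adjusted p = 0.00816).

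Gc encodes vitamin D-binding protein, which also scavenges actin released from damaged cells; the gene lies at chr5:89417522-89457898 on the minus strand, on the same chromosome as Alb at chr5:90460897-90476602 (GRCm38, GENCODE M21). Its pericentral levels were 4894, 4979.6 and 5384 CPM when fed, 4833, 5351 and 5290.2 after 8 h, and 5014, 6370.2 and 5854 after 24 h. Its periportal levels were 8348, 7192 and 7326 CPM when fed, 7141, 9898 and 9374 after 8 h, and 7514, 8083 and 8929.7 after 24 h. As with Alb, no periportal library fell into the pericentral range. Gc was 1.54-fold higher periportally over the states (log2 0.62 ± 0.0805, edgeR adjusted p = 2.63e-05). Its differences were 0.58 ± 0.139 (edgeR adjusted p = 0.0140) when fed, 0.77 ± 0.140 (0.00226) after 8 h and 0.51 ± 0.139 (0.0487) after 24 h. The 24 h call lay at the threshold and was lost in 16 of 18 fits that left out 1 library, all but those without periportal 8 h library 1 or 2, with log2 differences of 0.42 to 0.59. It was also lost when the same-numbered libraries of both zones at 24 h were treated as pairs (log2 0.51 ± 0.138, adjusted p = 0.0512). The fed call was lost without pericentral library 1 or 2 or periportal library 1 of that state, with log2 differences of 0.51 to 0.62 over all 18 such fits. Afm, the gene of the vitamin E carrier afamin and another member of the family, was 1.81-fold higher periportally (log2 0.86 ± 0.0974, edgeR adjusted p = 6.47e-06), with 119 to 188 CPM in pericentral and 207 to 364 in periportal libraries, and Afp, the fetal member, was at 0.391 to 1.42 CPM throughout. Counting Alb and Gc, 3 of 4 family genes were called higher in periportal cells, against 10.3% of all genes.

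The iron, haem and copper carriers divided by how strongly they followed the 3 libraries with high Saa1. Trf, the gene of the iron carrier transferrin, stood at 11049, 10538 and 16924 CPM in pericentral fed, 16862, 11444 and 12411 in pericentral 8 h and 11182, 12836 and 11402 in pericentral 24 h libraries. The periportal values were 17658, 14347 and 15250.4 CPM when fed, 14034, 19100.4 and 16409 after 8 h and 15117, 13844 and 20798 after 24 h. The 2 highest pericentral values came from libraries with high Saa1, and without the 3 libraries the zones did not overlap (10538 to 12836 against 13844 to 19100.4 CPM, 7 and 8 libraries). Trf was 1.28-fold higher periportally with all libraries (log2 0.36 ± 0.12, edgeR adjusted p = 0.0442) and 1.35-fold higher without the 3 (log2 0.44 ± 0.0877, adjusted p = 0.00344). With all libraries the call was close to the threshold and was lost in 12 of 18 fits that left out 1 library, with log2 differences of 0.29 to 0.44. It held without pericentral fed 3, pericentral 8 h 1, pericentral 24 h 2, periportal 8 h 1 or periportal 24 h 1 or 2. With the same-numbered libraries at 24 h as pairs it was lost (log2 0.35 ± 0.124, adjusted p = 0.0601), which left 4 of the 10 genes called over the states.

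Hpx encodes hemopexin, which carries free haem to the liver; it lies at chr7:105591613-105600137 on the minus strand. Pericentral levels were 1191, 1250.5 and 4426 CPM when fed, 5764, 1549 and 1423 after 8 h, and 2205, 1887 and 1455 after 24 h. Periportal levels were 4410.1, 3117 and 3565 CPM when fed, 3165, 5312 and 3648 after 8 h, and 3816, 3289 and 8018 after 24 h. In each of the 3 groups with a high-Saa1 library, that library had the highest Hpx level, and 2 of these groups are pericentral. With all 18 libraries, Hpx did not pass the test (log2 0.87 ± 0.338, 95% interval 0.13 to 1.61, edgeR adjusted p = 0.0893). It passed without pericentral fed library 3 or without pericentral 8 h library 1, and without all 3 it was 2.51-fold higher in periportal cells (log2 1.33 ± 0.132, adjusted p = 1.32e-05). The zones did not overlap in the 15 other libraries, with 1191 to 2205 CPM in 7 pericentral and 3117 to 5312 CPM in 8 periportal libraries. The difference was then 1.60 in fed mice (adjusted p = 0.00108), 1.44 after 8 h (adjusted p = 0.00269) and 0.94 after 24 h (adjusted p = 0.0431).

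Hp encodes haptoglobin, which binds haemoglobin released from red cells. It stood at 1846, 2198 and 6284 CPM in pericentral fed, 6892, 2295 and 2265 in pericentral 8 h, and 3486, 2807 and 2606 in pericentral 24 h libraries. In periportal libraries it stood at 2709, 2279 and 3309 CPM when fed, 2409, 3607 and 3010.2 after 8 h, and 3652, 3149 and 5772 after 24 h. The 3 highest values are those of the libraries with high Saa1, and the other 15 lie between 1846 and 3652. No zone difference was called for Hp (log2 -0.05 ± 0.271, 95% interval -0.64 to 0.54, edgeR adjusted p = 0.928). When the 3 libraries were left out the sign turned to higher periportal, with a p still above the threshold (log2 0.35 ± 0.113, adjusted p = 0.0517), with overlapping zones.

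**Figure D3:**
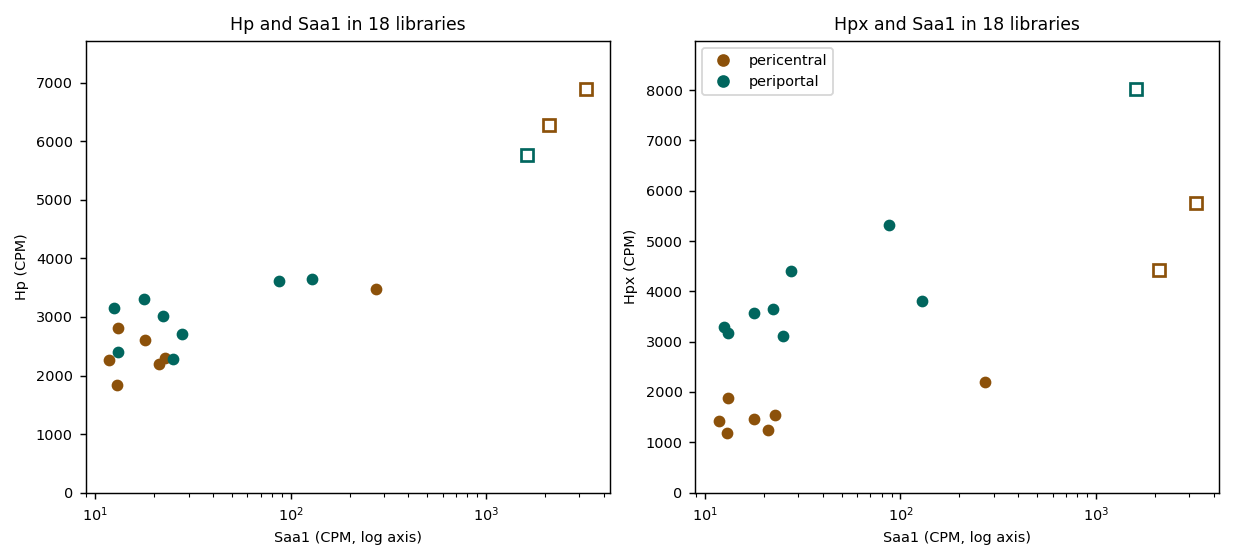
Level of Hp (left) and Hpx (right) in CPM (y axes, from 0) against that of Saa1 (x axes, log scale) in 18 libraries, pericentral in brown and periportal in green. The 3 open squares, with Saa1 from 1611 to 3234 CPM, have the 3 highest Hp values, while for Hpx the periportal points lie above the pericentral ones among the libraries with less Saa1.

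Cp and Ambp followed the zones in most libraries. Cp encodes ceruloplasmin, a copper-bearing ferroxidase that helps load iron onto transferrin. It stood at 714, 729 and 918 CPM in pericentral fed, 1303, 846 and 855 in pericentral 8 h, and 959, 836 and 784 in pericentral 24 h libraries, against 1220.4, 1002 and 1092 CPM, 1138, 1690.4 and 1546, and 1210.4, 998 and 1889.8 in the periportal groups. Only the pericentral 8 h library with high Saa1 entered the periportal range. Cp was 1.48-fold higher periportally over the states (log2 0.57 ± 0.128, edgeR adjusted p = 0.00432), and by a log2 value of 0.58 ± 0.0948 without the 3 libraries (adjusted p = 7.11e-04). Ambp encodes a precursor that is cut into alpha-1-microglobulin, a small carrier that binds haem, and bikunin, a protease inhibitor. Its levels were 2426, 2291 and 3851, then 4339.7, 2748 and 2857, then 2977, 3316 and 2952 CPM in pericentral fed, 8 h and 24 h libraries, and 4385, 3945 and 3995, then 4365, 4987 and 4685, then 4228, 4135 and 5734 CPM in the periportal groups. Here too a single pericentral library, at 4339.7 CPM, lay within the periportal range. Ambp was 1.46-fold higher periportally (log2 0.54 ± 0.117, edgeR adjusted p = 0.00299), and 1.58-fold without the 3 libraries (adjusted p = 1.78e-05). Within single states Ambp was called in fed mice only without pericentral library 3 (log2 0.80) and after 8 h only without pericentral library 1 (log2 0.73), besides the fits without all 3.

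The thyroid hormone and vitamin A carriers were not called by zone. Ttr encodes transthyretin, which carries thyroxine and also holds retinol-binding protein in plasma. It varied least of the 10 genes, from 3703 to 5466 CPM in pericentral (median 4532) and 3968 to 5557 CPM in periportal libraries (median 4803), a 1.501-fold range over 18 libraries. Its zone difference had a log2 value of 0.08 ± 0.0914, with a 95% interval of -0.12 to 0.28 (edgeR adjusted p = 0.631). Rbp4 encodes the retinol-binding protein that Ttr holds, and lay at 2266 to 3901 CPM in pericentral (median 2863) and 2487 to 3829.98 CPM in periportal libraries (median 3019.9). The log2 zone difference of Rbp4 was -0.03 ± 0.0844, with an interval of -0.21 to 0.15 (adjusted p = 0.856). Ahsg, the gene of fetuin-A, which keeps calcium phosphate in solution, lay at 4853 to 7162 CPM in pericentral and 5101 to 9161 CPM in periportal libraries, and its log2 difference of 0.21 ± 0.101 was not called (adjusted p = 0.174).

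**Figure D4:**
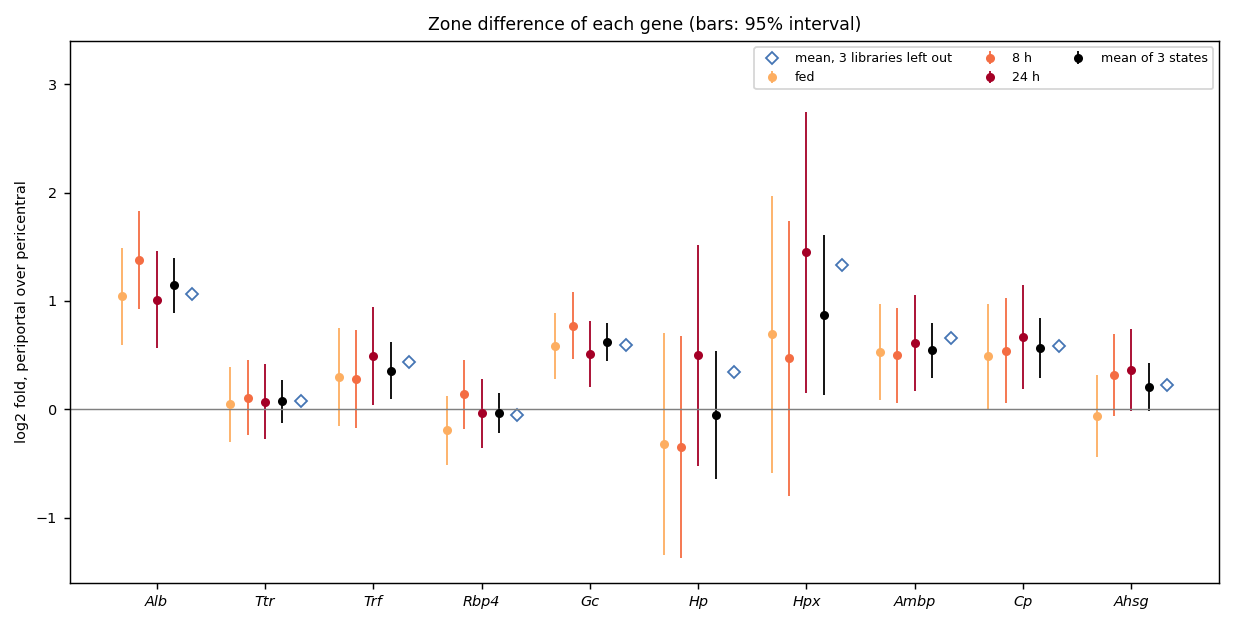
Log2 fold of periportal over pericentral libraries (y axis) for each gene (x axis) in fed, 8 h and 24 h fasted mice and as the mean of the 3 states, with 95% intervals; open diamonds give the mean without the 3 libraries with high Saa1. Alb and Gc lie above 0 in each state, Ttr and Rbp4 around 0, and Hp and Hpx have the widest intervals and move up without the 3 libraries.

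The second question was how the 10 genes changed with fasting. Within a zone, edgeR found 0 of the 10 genes past the threshold in each of the 6 comparisons of states. Before adjustment, 2 of 10 had an edgeR p under 0.05 in pericentral cells from 8 h to 24 h, where 3018 of all 12477 genes did. In periportal cells from fed to 24 h, 2 of 10 did, where 3999 of all genes did. In the other 4 comparisons 0 of 10 did, against 2788 to 4259 of all genes. In pericentral cells, 13.8% of all genes were called between 8 h and fed, 21.8% between 24 h and fed and 9.71% between 24 h and 8 h. In periportal cells the shares were 14.4%, 19.6% and 7.46%. Averaged over both zones, 0 of 10 were called at 8 h against fed, where 26.4% of all genes were. In that comparison 1 of the 10 had an unadjusted p under 0.05, against 4574 of all 12477 genes. At 24 h, 1 of 10 was called against fed (34.5% of all genes) and 1 of 10 against 8 h (20.2%), in both cases Rbp4. Without the 3 libraries with high Saa1, 2 of 10 were called at 24 h against fed (28.3% of genes), Rbp4 and Hp. The comparisons at 8 h and 24 h share the fed libraries.

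Rbp4 was the carrier with a called change. It stood at 2696, 2826 and 3515 CPM in pericentral and 2535, 2602 and 2756 in periportal libraries of fed mice. After 8 h it stood at 2266, 2839.8 and 2863 CPM and at 2487, 3157 and 3139, and after 24 h at 3208, 3508 and 3901 CPM and at 3019.9, 3500.2 and 3829.98. The 24 h values lie at the upper end in both zones and overlap those of fed mice through 1 pericentral fed library with high Saa1, at 3515 CPM, and those of 8 h through 2 periportal libraries. Rbp4 was 1.24-fold higher at 24 h than in fed mice (log2 0.31 ± 0.103, edgeR adjusted p = 0.0271) and 1.25-fold higher than at 8 h (log2 0.33 ± 0.103, adjusted p = 0.0347). The first call was lost in 7 of 18 fits that left out 1 library and the second in 8 of 18, with log2 changes of 0.27 to 0.37 and 0.26 to 0.37. Leaving out the 3 libraries, the change from fed to 24 h was 0.33 (adjusted p = 0.0202) and that from 8 h to 24 h was 0.23 (adjusted p = 0.132). The libraries whose removal ended the first call were pericentral fed 1 and 2, periportal fed 1 and 2, pericentral 24 h 3 and periportal 24 h 2 and 3. Those that ended the second were periportal fed 2, pericentral 8 h 1 and 2, periportal 8 h 1, pericentral 24 h 2 and 3 and periportal 24 h 2 and 3.

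Alb lay higher after 24 h than in fed mice by a log2 value of 0.36 ± 0.144, with a 95% interval of 0.04 to 0.67, and did not pass the test (edgeR adjusted p = 0.0661). It passed without periportal 8 h library 1, pericentral 24 h library 1 or periportal 24 h library 1, with log2 changes of 0.28 to 0.44 over all 18 such fits. Its share of all counts was 5.43% ± 0.245 (SD, n = 3) in pericentral fed, 5.14% ± 0.749 in pericentral 8 h and 6.87% ± 1.55 in pericentral 24 h libraries. In periportal libraries it was 10.68% ± 0.589, 11.34% ± 1.58 and 12.2% ± 1.29. Library 1 of the pericentral 24 h group, at 5.16%, lay below the pericentral fed range of 5.23% to 5.70%. The highest share of that group, 8.18%, was that of library 2, which had mixed zone markers. Cp had the largest value at 8 h, a log2 change of 0.37 ± 0.157 that was not called (edgeR adjusted p = 0.0915) except without periportal 8 h library 1 or periportal 24 h library 3 (log2 0.26 to 0.46 over the 18 fits). Hp rose by a called amount at 24 h only without the 3 libraries (log2 0.42 ± 0.138, adjusted p = 0.0342), against 0.19 ± 0.332 with all of them. For Ttr and Trf the 24 h value was near 0, with log2 changes of -0.06 (95% interval -0.31 to 0.18) and -0.02 (-0.34 to 0.30). In periportal cells Ahsg lay higher at 24 h, with 5594, 5349 and 5631 CPM when fed and 6455, 6799.5 and 9161 CPM after 24 h, which did not overlap but was not called (log2 0.44 ± 0.175, adjusted p = 0.0918).

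No gene of the 10 had a called difference between zones in its change with fasting. Of all genes, edgeR called 0% for the change from fed to 8 h, 0.016% for fed to 24 h and 0% for 8 h to 24 h, and 680, 962 and 746 genes had a p under 0.05 before adjustment; the DESeq2 Wald test called 6, 38 and 3 genes, and limma-voom 0 in each. None of the 10 had an unadjusted p under 0.05 in any of the 3. For Alb the difference was a log2 value of 0.33 (95% interval -0.30 to 0.96) from fed to 8 h and -0.03 (-0.66 to 0.60) from fed to 24 h. For Hpx the interval from fed to 24 h was -1.04 to 2.55, so that differences of several-fold were not detectable for this gene.

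The secretory apparatus is the route by which all 10 proteins leave the cell. Of 44 listed genes for translocation, folding and export, 42 were tested. Against fed mice, 31 of 42 were called lower and 3 higher at 24 h, and 16 of 42 lower and 0 higher at 8 h, while 17.5% and 12.5% of all genes were called lower. The median log2 change was -0.59 at 24 h and -0.18 at 8 h, against 0.01 at both for all genes. Hspa5, the main chaperone of the endoplasmic reticulum, fell by 1.90 ± 0.134 on the log2 scale at 24 h (edgeR adjusted p = 4.57e-08), from 1558 and 1910.1 CPM in pericentral and periportal fed cells to 441 and 488. Pdia4, a disulfide isomerase, fell by 1.84 ± 0.163 (adjusted p = 5.89e-07). Mia3 and Mia2, which help load large cargo into transport vesicles, were 1.36-fold and 1.35-fold higher (adjusted p = 4.65e-05 and 0.00114). By zone, 8 of 42 were called higher and 1 lower in periportal cells, where 20.3% of all genes were called and 10.3% called higher, so the total of 9 is near the share over all genes. Without the 3 libraries with high Saa1, 30 of 42 were called lower and 3 higher at 24 h, where 28.3% of all genes were called. At 8 h, 14 of 42 were then called lower and 0 higher, where 21.8% of all genes were called. By zone, 10 of 42 were then called higher and 1 lower in periportal cells, where 15.8% of all genes were called.

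Transcription factors known to act on plasma protein genes were counted next. Of 20 listed, 13 were called at 24 h against fed, 7 higher and 6 lower (34.5% of all genes), and 10 at 8 h, 4 higher and 6 lower (26.4%), while 7 and 10 did not pass. By zone, 2 of 20 were called (20.3%). Dbp, Tef and Hlf, the PAR bZIP factors, were lower at 8 h by 4.52, 1.68 and 0.65 on the log2 scale (edgeR adjusted p = 3.89e-06, 2.79e-06 and 7.85e-05). At 24 h, at the clock time of the fed groups, none of these 3 was called (edgeR adjusted p = 0.415, 0.332 and 0.679). These factors are known to cycle with clock time, but in the 8 h groups clock time and feeding cannot be told apart. Nfil3, which binds the same motif as a repressor, was 3.21-fold higher at 8 h (adjusted p = 8.51e-07) and still 2.29-fold higher than in fed mice at 24 h (adjusted p = 1.72e-05). Cebpb, a C/EBP factor of the acute phase, rose by 1.05 ± 0.161 at 24 h (adjusted p = 1.29e-04) and Hnf4a by 0.56 ± 0.0955 (adjusted p = 2.43e-04), whereas Cebpa fell by 0.56 ± 0.159 (adjusted p = 0.0123). None of the factors named here was called by zone.

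**Figure D5:**
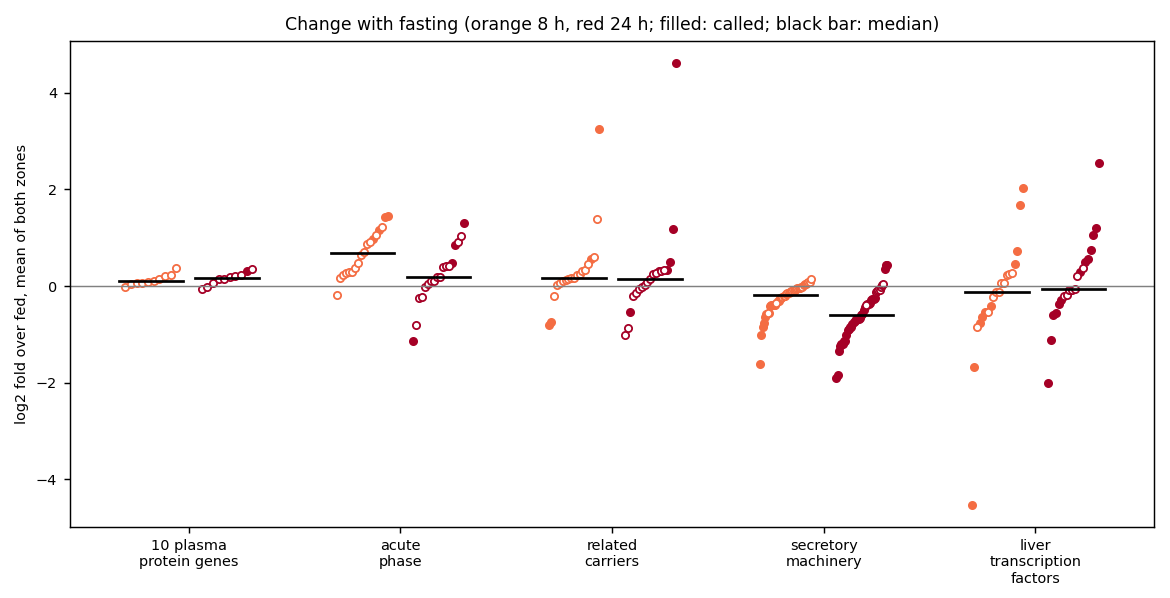
Log2 change from fed to 8 h (orange) and to 24 h (red) of fasting, as the mean of both zones (y axis), for the genes of 5 lists (x axis). Filled points are called, open points are not, and black bars are medians; the 10 plasma protein genes lie near 0 with Rbp4 at 24 h as the only filled point, while the secretory machinery has medians of -0.18 and -0.59.

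The receptors that take up these carriers and their complexes were measured as well. Of 14 listed, 11 were tested, and 8 were called at 24 h against fed, 4 in each direction (34.5% of all genes). Tfrc, the transferrin receptor, fell by 2.09 ± 0.229 on the log2 scale (edgeR adjusted p = 8.44e-06), from 83.8 and 86.8 CPM in pericentral and periportal fed cells to 17.2 and 23.4, while Trf itself was not called. Stra6l, a receptor for retinol-binding protein in liver, was 1.43-fold higher at 8 h (adjusted p = 7.65e-05) and fell by 1.31 ± 0.0767 from 8 h to 24 h (adjusted p = 2.18e-08), and was 1.52-fold higher in periportal cells (adjusted p = 2.08e-06). Fcgrt, the receptor that returns albumin to the circulation, was 1.55-fold higher at 24 h (adjusted p = 1.60e-05).

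Acute-phase genes were read beside Hp and Hpx. Of 18 listed, 4 were called higher at 8 h and 0 lower, a share near the 26.4% of all genes. At 24 h against fed 3 were called higher and 1 lower (34.5% of all genes), and 6 and 1 without the 3 libraries with high Saa1 (28.3%). Fga, Fgb and Fgg, the 3 chains of fibrinogen, were among those called at 8 h, with log2 changes of 1.44, 1.17 and 1.43 (edgeR adjusted p = 2.03e-04, 7.28e-04 and 7.10e-05). By zone 1 of 18 was called with all libraries (20.3% of all genes), Pigr, which carries immunoglobulin A across the cell, and 9 of 18, all higher periportal, without those 3 (15.8%). Il6ra and Il1r1, receptors for the signals of the acute phase, were 2.46-fold and 3.88-fold higher at 8 h (adjusted p = 2.62e-04 and 1.24e-04).

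Genes whose pattern over the 6 group means was most like that of a called carrier were found by the smallest root mean square difference in centred log2 CPM, among 6703 genes of at least 10 CPM. For Alb these were Hsd11b1, Rida and Apoc2, with differences of 0.097, 0.0986 and 0.104. For Gc they were Pla1a, Gm4788 and Hgfac, at 0.0384, 0.0407 and 0.0483. For Ambp they were H2-D1, C3 and Vtn, at 0.0461, 0.0493 and 0.0539, and for Cp Itih4, Hc and Mmp14, at 0.0615, 0.0662 and 0.0726. For Trf they were Sdc2, Krt7 and the pseudogene Rps2-ps10, whose counts may share reads with its parent gene, at 0.0529, 0.0594 and 0.0611. For Rbp4, which varied over a narrower range, they were Pdcd6, Fnta and Sin3b, at 0.0390, 0.0452 and 0.0456.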

How the data were processed

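RNA-seq of 18 libraries of mouse hepatocytes was analysed, 3 in each of 6 groups. The deposited values are estimated counts per gene, made by the authors with kallisto 0.46.0 and mm10, per the submitters' processing notes; the annotation and other settings are not given in the sources used here. Estimated counts were rounded to whole numbers. edgeR 4.0.16 (R 4.3.3) was fitted across all genes with 1 coefficient per group, TMM scaling, filterByExpr and the robust quasi-likelihood test. The fit gave 16 contrasts, and p was adjusted by Benjamini-Hochberg over all 12477 genes, called under 0.05. CPM are TMM-scaled; shares are of all counts. SE is the log2 fold divided by the root of F, and 95% intervals use 12 degrees of freedom. The fit was tested on simulated data. Alternatives were DESeq2 1.42.0 size factors and Wald test, limma-voom (limma 3.58.1), other filters and scalings, a replicate block and leaving out libraries. Libraries of 1 group differed by more than counting noise. The mean chi-square per gene between 2 libraries, a ratio of variances near 1 for counting noise alone, was 38.1 to 128. Coordinates and lengths are from GENCODE M21 and windows from RefSeq. Replicate numbers come from the titles. At 24 h the 3 same-numbered pairs of zones deviated together (r 0.121 to 0.165, other numbers -0.121 to -0.0236); zone tests were fitted without pairs, and a paired value stands beside each call it changed. The members, gene lists and tests were chosen with earlier results of these data known. All 10 genes were named. From each list, the 2 genes with the largest called change in each direction and at least 10 CPM could be named, with set transcription factors and the zone markers always named, 1 of the factors not being reported here; Fgb, Afp, Saa1, Saa2 and Lcn2 were added after their values were seen.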

Additional observations from a re-analysis of the deposited data

How the results depend on the processing

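Of 4490 values of the 10 genes over 16 comparisons and the alternatives (9 other settings, 18 single libraries left out 3 libraries left out together and a block within the 24 h groups, the last 2 chosen after seeing the data), 4194 had the same direction and side of the threshold, 58 lost a call, 29 gained one, 209 changed sign while not called, and 0 called values reversed. The number of the 10 genes called by zone moved from 2 to 1 at 8 h with only the groups compared in the fit. At 24 h it moved from 2 to 1 with DESeq2 size factors, with no filter beyond 1 count and with only the groups compared, and to 4 with the DESeq2 Wald test. The fit without the 3 libraries called 5 (fed), 5 (8 h) and 1 (24 h), where 6.39%, 5.26% and 2% of all genes were called. For fasting, the DESeq2 Wald test called 1 from 8 h to 24 h in pericentral cells, 2 from fed to 24 h in periportal cells and 2 averaged over zones. Only the groups compared gave 2 from fed to 24 h and 0 from 8 h to 24 h over both zones. Without the 3 libraries, 1 was called from fed to 24 h in pericentral cells (Ambp, edgeR adjusted p = 0.0388), where 16.6% of all genes were. Averaged over zones, 2 were then called from fed to 24 h (28.3% of all genes) and 0 from 8 h to 24 h (14.2%). For the other fits of this paragraph the share of all genes called is not given, so their counts cannot be set against it. Leaving out single libraries gave 1 to 3 (fed), 2 to 3 (8 h), 0 to 2 (24 h) and 4 to 6 (all states) by zone, and 0 to 1 (8 h against fed), 0 to 2 (24 h against fed) and 0 to 1 (24 h against 8 h) averaged over zones; it gave 0 to 0 elsewhere.

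A replicate block gave 1 call from 8 h to 24 h in pericentral cells and 1 from fed to 24 h in periportal cells, both Rbp4 (edgeR adjusted p = 0.0189 and 0.0163). The number called in the other 14 comparisons was within 1.5 times the value without it, a band that can hide a single call lost or gained. The share of all genes called with this block is not given here. Of 45 pairs of libraries with the same number, 7 correlated over 0.1 (-0.12 to 0.206), so the numbers were not taken as pairing across states, nor between zones in fed mice (-0.0112 to 0.00674) or at 8 h (-0.008 to 0.0705). At 24 h same-numbered libraries of both zones deviated together (0.121 to 0.165), though the labels do not say that they are pairs. A replicate block within the 24 h groups gave 1 call at 24 h, Alb (edgeR adjusted p = 0.00498), where 4.1% of all genes were called. Over the states it gave 4 (20.4% of all genes). That block ended the calls of Gc and Trf and no other.

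Without Alb the shares were 4.25%, 4.549% and 4.125% in pericentral fed, 8 h and 24 h and 4.828%, 4.853% and 5.031% in periportal libraries. Without mitochondrial genes in the total they were 16.97% for the 10 genes in periportal fed and 10.49% in pericentral 8 h libraries, and moved by less than 1 SD in the other 4 groups. Leaving out a library gave 9.169% to 10.08%, 9.536% to 9.986% and 10.24% to 11.92% in pericentral and 15.06% to 15.8%, 15.4% to 17.24% and 16.38% to 18.08% in periportal groups. The causes of these moves were not tested, and 3 libraries a group limit what can be called.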

Other observations

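Other plasma carriers were listed beside the 10 genes. Of 20 further carriers, 19 were tested, and 9 were called by zone, 5 higher and 4 lower in periportal cells, where 20.3% of all genes were called (7 and 4 of 20 tested, and 15.8% of all genes, without the 3 libraries with high Saa1). Serpina7, the gene of thyroxine-binding globulin, averaged 19.6, 28.7 and 5.98 CPM in pericentral fed, 8 h and 24 h groups and 0.221 to 0.338 CPM in the periportal groups (log2 -5.84 ± 0.525, edgeR adjusted p = 2.68e-06). Ttr, the other thyroxine carrier, was not called by zone. Pltp, which transfers phospholipids between lipoproteins, fell by 2.32 ± 0.307 on the log2 scale from pericentral to periportal cells (adjusted p = 8.37e-05). Vtn and Kng2 were 1.41-fold and 1.43-fold higher in periportal cells (adjusted p = 0.00447 and 0.00443).

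With fasting, Igfbp1, which binds insulin-like growth factors, rose from 15.2 and 16.8 CPM in pericentral and periportal fed cells to 285 and 542 at 24 h (24.6-fold, edgeR adjusted p = 3.48e-05), and Igfbp2 rose 2.26-fold (adjusted p = 8.59e-05). Igfals, which stabilises the same growth factors in plasma, fell by 0.53 ± 0.137 on the log2 scale as the mean of both zones (adjusted p = 0.00653). Its group means went from 124.8 CPM in periportal fed cells to 62.0 at 24 h, but only from 68.2 to 65.8 in pericentral cells. As the mean of both zones, Serpina6, the gene of corticosteroid-binding globulin, fell by 0.75 ± 0.137 at 8 h (adjusted p = 6.27e-04). It was 1.46-fold higher at 24 h than at 8 h (adjusted p = 0.00979). Its pericentral means were 283.1 CPM when fed, 164.2 at 8 h and 335.9 at 24 h. The periportal means were 176.3, 107.5 and 112.3 CPM, so the later rise was seen mainly in pericentral cells. For a zone difference in the change from 8 h to 24 h, edgeR called 0 genes.

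Genes that handle the cargo of these carriers inside the cell were called by zone in 8 of 21, 3 higher and 5 lower in periportal cells, against 20.3% of all genes. Blvrb, a biliverdin reductase, fell by 1.68 ± 0.109 and Cyp27a1, which hydroxylates sterols and vitamin D, by 1.26 ± 0.0932 on the log2 scale towards the periportal side (edgeR adjusted p = 3.18e-08 and 7.84e-08). Slc40a1, the iron exporter ferroportin, was 1.75-fold higher there (adjusted p = 0.00389) and 1.88-fold higher at 24 h than in fed mice (adjusted p = 0.00406). Atp7b, which loads copper onto ceruloplasmin, fell by 0.90 ± 0.141 at 24 h (adjusted p = 1.27e-04), a time at which Cp was not called.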
